A study of Homo sapiens with 6 samples.

Results

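The 9 genes described here are the nuclear receptor genes NR1H2 and NR1H3, which encode the liver X receptors (LXR), and 7 genes that these receptors control or that move cholesterol out of cells: ABCA1, ABCG1, APOE, MYLIP, LPCAT3, SMPDL3A and NPC1. They were taken by symbol from a table of 60564 genes, in which each symbol occurred once. The set was selected on values of this same comparison, in which the lower level of ABCG1 was already known, so the changes of these genes between the groups, with their p-values, are a description and no independent evidence. All 9 passed the filter on low counts, by which 18786 genes were tested.

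The cells are CAL27, an established human line of oral squamous cell carcinoma. Both groups were infected with lentivirus and selected with puromycin at 5 μg/ml for 2 weeks. The 3 libraries called CNTNAP2-203 OE carry a construct that overexpresses CNTNAP2-203, a transcript of CNTNAP2, and the 3 control libraries carry the control vector, named EGFP in their descriptions and WT under genotype. The labels do not say whether libraries of a group are separate cultures or infections, so p-values cover only library-to-library spread, and that spread may be technical. All 6 libraries come from this single line, and the labels do not name the promoter that drives the construct. The series asks by which mechanisms CNTNAP2-203 promotes proliferation of these cells.

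LXRα (NR1H3) and LXRβ (NR1H2) are sensors of oxysterols, oxidised forms of cholesterol. Each pairs with a retinoid X receptor and binds DNA at a direct repeat called DR4. Without ligand the pair holds corepressor complexes, and with ligand it switches on genes that lower the cell's free cholesterol. ABCA1 passes cholesterol and phospholipid to lipid-poor apolipoprotein A-I, and ABCG1 passes sterols on to mature HDL particles. MYLIP, also called IDOL, marks lipoprotein receptors for degradation. In the epidermis these receptors are known for their part in keratinocyte lipid and barrier formation.

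The ABCA1 promoter is shown because ABCA1 and ABCG1 were the genes with lower levels. It comes from RefSeq (GRCh38.p14) and covers the 250 bases before the start site, chr9:104928156-104928405 on the minus strand. In capitals, from 5′ to 3′, stand an E-box and a TATA box.
ABCA1 promoter: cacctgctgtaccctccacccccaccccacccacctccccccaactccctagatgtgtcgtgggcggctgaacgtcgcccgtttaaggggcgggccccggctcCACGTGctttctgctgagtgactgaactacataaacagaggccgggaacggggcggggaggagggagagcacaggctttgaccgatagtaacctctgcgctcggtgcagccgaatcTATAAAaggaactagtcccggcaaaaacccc

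The motifs were searched on both strands of windows of 300 bases, 250 before and 50 after each start site. The DR4 repeat that LXR binds was not searched for, so nothing is said of its presence or absence in any window. Matches did not overlap each other in the ABCA1 window. CACGTG was in 7.26% of 35116 human promoter windows, TATAAA in 11.5% and GGGCGG in 45.0%. Of the 9 genes, 7 had entries, with 12 windows in all, and ABCG1 and SMPDL3A had none. Among these 12 windows CACGTG and TATAAA were each found in that of ABCA1 alone. GGGCGG was found in at least 1 window of each of the 7 genes with entries. CCAAT, in 34.6% of all windows, was found in windows of MYLIP, NR1H3, LPCAT3 and APOE. A match of letters is a description and does not show binding.

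ABCA1 is also a textbook target of miR-33a and miR-33b, microRNAs encoded within introns of SREBF2 and SREBF1. Their mature sequences (RefSeq, GRCh38.p14) share a seed, shown in capitals.
hsa-miR-33a-5p: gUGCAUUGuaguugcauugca
hsa-miR-33b-5p: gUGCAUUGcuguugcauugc
The reverse complement of that seed, CAATGCA, occurred 4 times in the 3′ untranslated region of transcript ABCA1-202 and 1 time in that of NPC1-201, in GENCODE 29. The matches of ABCA1 that start at bases 135 and 140 overlap each other. The string CAATGCA was in 7.4% of the 3′ untranslated regions of 18220 coding genes, and in none of those of the other 7 genes. For each gene 1 transcript was read, that with the longest coding sequence. The region had 3313 bases for ABCA1, 765 for NPC1 and 130 to 852 for the other 7 genes. A longer region has more places for a match, and the share of 7.4% is not matched for length. For MYLIP and NR1H3 the transcripts read, of 1666 and 1704 bases, were shorter than the longest coding ones, of 2796 and 2731 bases, whose untranslated regions were not searched. The first site of ABCA1, at base 135 of the region, and the single site of NPC1, at base 322, are printed with the matched bases in capitals.
ABCA1 site: gtactgatactattCAATGCAa
NPC1 site: ctgtaaaggccaatCAATGCAc
Mature microRNAs were not measured. The rows of the precursors MIR33A and MIR33B held 0 to 1 and 3 to 7 counts per library. SREBF2 was at 372 ± 8.34 CPM in control and 332 ± 32.9 CPM in CNTNAP2-203 OE (SD, n = 3 each; adjusted p = 0.453), named after its values were seen. CPM here are counts brought to a common library size with TMM factors, a correction for library composition.

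The raw counts of the 6 libraries summed to between 36843190 and 42412703. CNTNAP2 itself had 0 to 4 counts in the controls and 119280 to 156055 in the overexpressing libraries, as the labels say. CNTNAP2-203 OE replicate 3 stood apart from the rest of its group in a way that followed transcript length, a description chosen after the data were seen. Against the mean of replicates 1 and 2, the median log2 CPM difference of its coding genes was 0.40 for longest transcripts of up to 1500 bases (1558 genes) and -0.37 for those over 8000 bases (1120 genes). Between replicates 1 and 2 the same medians were 0.05 and -0.03. Values without replicate 3 are given where it ended or made a call, turned a direction or moved a fold change by over 1.5 times. This holds for genes named by the rule below, and no such value is given for genes named after their values were seen. Squamous markers were abundant in all libraries, with KRT5 at 5126 ± 496 CPM in control and 6500 ± 557 CPM in CNTNAP2-203 OE, and all 8 listed were tested. Of their log2 fold changes 3 were positive and 5 negative, from -0.64 (DSG3) to 0.34 (KRT5) with a median of -0.08, and 4 had an unadjusted p under 0.05. The summed FPKM of these 8 was 3511 to 4021 in control and 3387 to 4004 in CNTNAP2-203 OE. Of 8 macrophage and leukocyte markers, CD163, TYROBP and AIF1 were at 0 in every library and PTPRC at no more than 5 counts, although CD68 and CD14 were measured at 31.1 and 28.1 CPM in control. The summed FPKM of these 8 was 22.3 to 30.3 in control and 23.2 to 26.9 in CNTNAP2-203 OE.

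**Figure D1:**
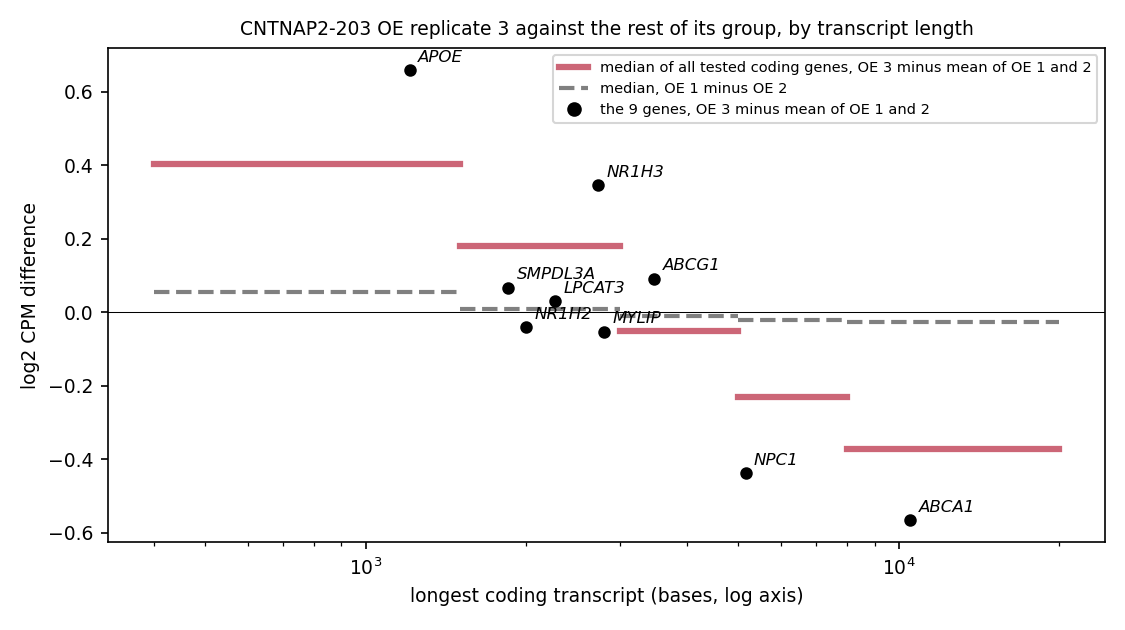
Horizontal axis, the longest coding transcript in bases on a log axis; vertical axis, the log2 CPM difference. Red bars are medians over tested coding genes of CNTNAP2-203 OE replicate 3 minus the mean of replicates 1 and 2, falling from 0.40 to -0.37 with length; dashed bars are replicate 1 minus replicate 2; points are the 9 genes, with ABCA1 lowest at -0.56.

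Both cholesterol exporters were lower in CNTNAP2-203 OE, and the other 7 genes were not called. By edgeR's quasi-likelihood test over all genes, 2 of the 9 fell and 0 rose at an adjusted p under 0.05, where 0.596% of all tested genes fell and 0.798% rose. In all, 262 genes were called, or 1.39%. By unadjusted p under 0.05, which 17.2% of all tested genes had, 3 of the 9 passed, all with negative fold changes, and DESeq2, limma-voom and limma-trend also called 0 higher. The median log2 fold change of the 9 was -0.09, against -0.0038 over all tested genes. The groups did not overlap for 4 of the 9, with 3 lower and 1 higher, against 12.8% and 13.7% of all tested genes and 26.5% in either direction. Because the genes were chosen with this contrast in view, nothing is read from these shares. Other fits called 1 of the 9 (ABCG1) with RLE size factors in edgeR, by limma-voom and by limma-trend, which called 1.32%, 0.884% and 0.99% of all genes. Upper-quartile scaling, no filter on low counts and DESeq2 called both exporters, with 1.23%, 1.05% and 7.62% of the genes each tested. These were 18786, 33852 and 14763 genes, the last being those to which DESeq2 gave an adjusted p. Without control replicate 1, 2 or 3 or CNTNAP2-203 OE replicate 1, 0 of the 9 were called by edgeR. The shares called were 0.0925%, 0.072%, 0.0932% and 0.119% of the 19313 to 19457 genes tested in these fits. Without CNTNAP2-203 OE replicate 2 ABCG1 was called (0.377% of 19345 tested genes), and without replicate 3 both exporters were (2.8% of 19470).

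**Figure D2:**
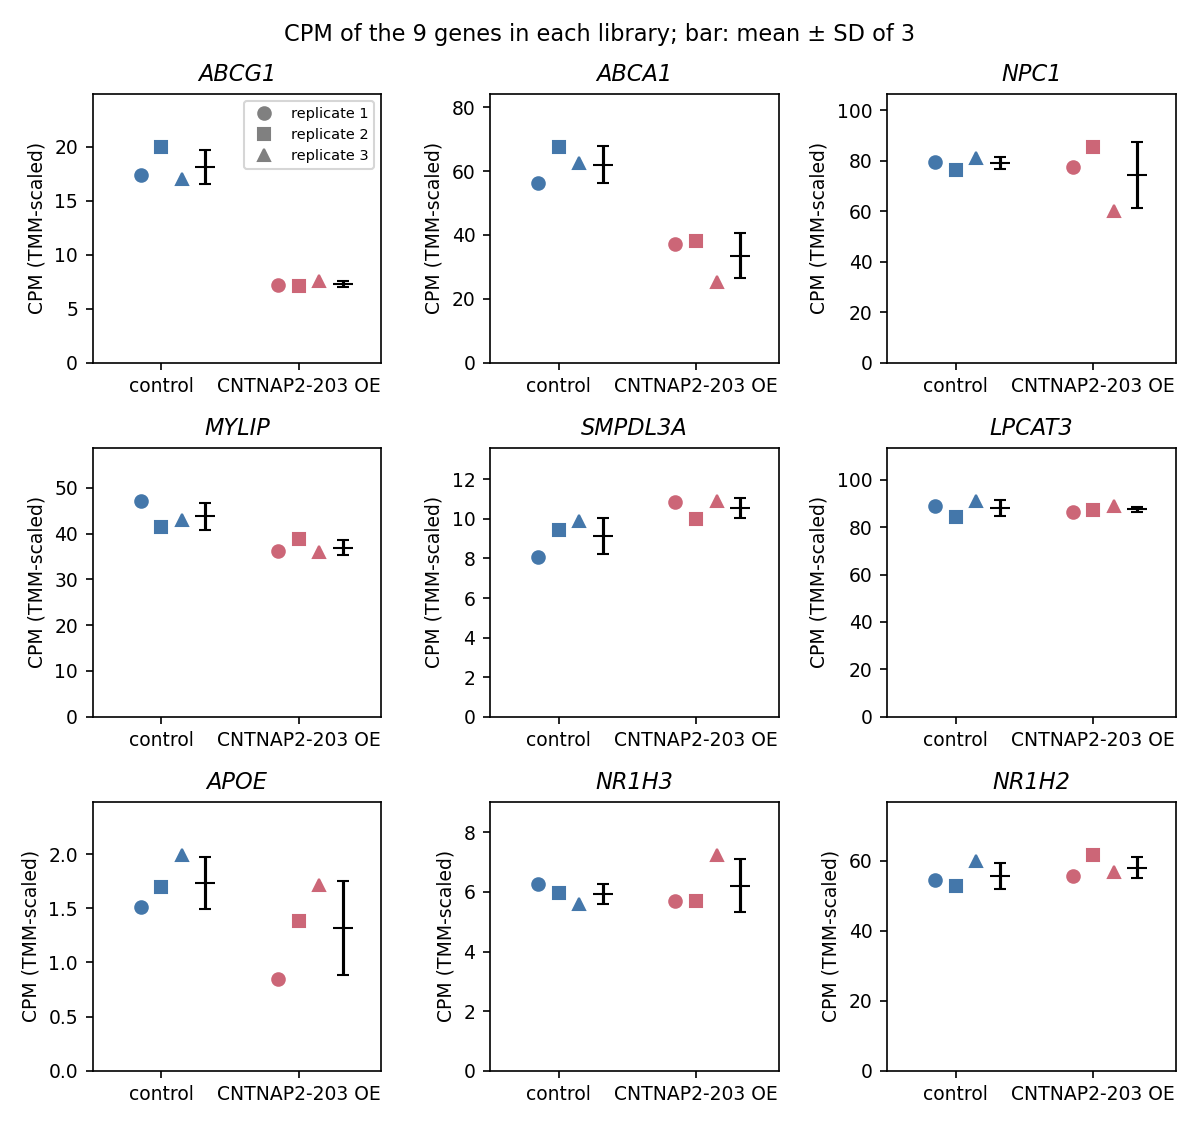
Vertical axes, TMM-scaled CPM from 0; horizontal axes, control (blue) and CNTNAP2-203 OE (red), with symbols for replicates 1 to 3 and the mean ± SD in black. ABCG1 and ABCA1 show separate groups, 17.0 to 20.0 against 7.09 to 7.60 CPM and 56.2 to 67.5 against 25.4 to 38.0 CPM, while NR1H2, NR1H3, LPCAT3, APOE and NPC1 overlap.

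ABCG1, the exporter that loads HDL, fell to 40.2% of the control mean. Its values were 17.4, 20.0 and 17.0 CPM in control replicates 1, 2 and 3, and 7.18, 7.09 and 7.60 CPM in CNTNAP2-203 OE replicates 1, 2 and 3. The 3 overexpressing libraries lay close together, and each was below every control. The means were 18.1 ± 1.59 and 7.29 ± 0.272 CPM (SD, n = 3 each), and the log2 fold change was -1.31 (SE 0.130, 95% interval -1.61 to -1.02, adjusted p = 0.0093). In these bulk libraries fewer cells with ABCG1 RNA and less ABCG1 RNA per cell cannot be told apart. Leaving out CNTNAP2-203 OE replicate 3 gave -1.35 (adjusted p = 0.00677). The call was lost without control replicate 1, 2 or 3 (adjusted p = 0.0558, 0.0711 and 0.05003) and without CNTNAP2-203 OE replicate 1 (0.0572). ABCG1 (ENSG00000160179) lies at 21:42199689-42297244 on the plus strand, and shares no exonic base with another gene of GENCODE 29.

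ABCA1, the exporter that lipidates apolipoprotein A-I, was at 54.0% of the control mean. Control replicates 1, 2 and 3 held 56.2, 67.5 and 62.6 CPM, and CNTNAP2-203 OE replicates 1, 2 and 3 held 37.1, 38.0 and 25.4 CPM. Replicate 3 was the lowest of its group for ABCA1 and the highest of its group for ABCG1, and all 3 were below every control. Means of 62.1 ± 5.66 and 33.5 ± 7.04 CPM gave a log2 fold change of -0.89 (SE 0.166, 95% interval -1.27 to -0.51). With an adjusted p = 0.04996 it was the last by p of the 262 genes called. The longest coding transcript of ABCA1 has 10494 bases, the length class in which replicate 3 was low, and the difference of ABCA1 in that library was -0.56 on the log2 scale. Without replicate 3 the fold change was smaller, -0.73, and the call stood (adjusted p = 0.01996). The call was lost without each other library, with adjusted p between 0.0872 and 0.208. It was also lost with RLE size factors in edgeR (0.0504), by limma-voom (0.0624) and by limma-trend (0.0838). ABCA1 (ENSG00000165029) lies at 9:104781002-104928237 on the minus strand, and shares no exonic base with another gene.

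**Figure D3:**
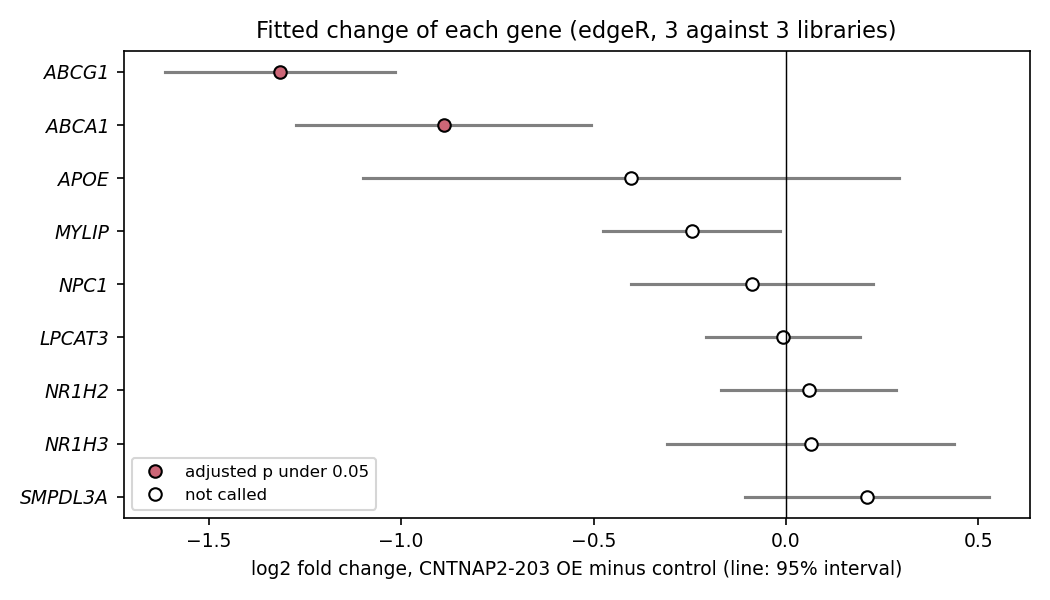
Horizontal axis, fitted log2 fold change, CNTNAP2-203 OE minus control, with its 95% interval as a line; vertical axis, the 9 genes in order. ABCG1 at -1.31 and ABCA1 at -0.89 (red) passed at an adjusted p under 0.05; the other 7 (white) lie between -0.40 and 0.21.

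The receptor genes themselves differed little between the groups. NR1H2, the LXR found in most tissues, held 54.6, 52.8 and 59.9 CPM in the controls and 55.7, 61.6 and 57.0 CPM in the overexpressing libraries. These values overlap, and the log2 fold change was 0.06, with a 95% interval of -0.17 to 0.29 (adjusted p = 0.798). NR1H3, the LXR known for liver, fat and macrophages, held 6.25, 5.95 and 5.59 CPM against 5.69, 5.69 and 7.23 CPM. Only replicate 3 of CNTNAP2-203 OE was above the controls, and the log2 fold change of 0.06 (95% interval -0.31 to 0.44, adjusted p = 0.868) turned to -0.06 without that library. Per length, NR1H2 was the more abundant receptor, at 8.65 ± 0.539 against 1.04 ± 0.0640 FPKM in control (FPKM are fragments scaled to transcript length and library size, as deposited). In CNTNAP2-203 OE the levels were 8.76 ± 0.671 FPKM for NR1H2 and 1.05 ± 0.116 FPKM for NR1H3. NR1H3 (11:47248300-47269032, plus strand) shares 189 exonic bases with ACP2 on the other strand. The sources used here do not say whether reads were counted by strand. NR1H2 (19:50329653-50382982, plus strand) shares none.

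MYLIP, the ligase that removes lipoprotein receptors, had a lower mean that did not pass. It held 47.0, 41.4 and 42.9 CPM in control and 36.1, 38.7 and 36.0 CPM in CNTNAP2-203 OE. Each overexpressing library was below each control, by a small margin. The log2 fold change was -0.24 (SE 0.0996, 95% interval -0.47 to -0.01, adjusted p = 0.263).

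SMPDL3A encodes a secreted phosphodiesterase of the acid sphingomyelinase family and is a known LXR target of human macrophages. It was the single member of the 9 whose overexpressing libraries all lay above the controls, at 10.8, 9.97 and 10.9 against 8.09, 9.45 and 9.87 CPM. The margin was small, and the log2 fold change of 0.21 (95% interval -0.11 to 0.53) did not pass (adjusted p = 0.470), and it was 0.13 without control replicate 1. LPCAT3, the enzyme that places polyunsaturated fatty acids in membrane phospholipids, was nearly level. Its 6 values ran from 84.5 to 91.0 CPM with overlapping groups, and the log2 fold change was -0.01 (95% interval -0.21 to 0.19, adjusted p = 0.971). LPCAT3 (12:6976186-7018510, minus strand) shares 3100 exonic bases with EMG1 on the other strand, a gene with 2295 to 3385 counts per library, so its value is uncertain. MYLIP (6:16129125-16148248) and SMPDL3A (6:122789049-122809720), both on the plus strand of chromosome 6, share no exonic base with another gene.

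APOE, the gene of an apolipoprotein that can accept exported cholesterol, was scarce in these cells. Its raw counts were 60, 67 and 84 in control and 36, 57 and 60 in CNTNAP2-203 OE. In CPM these were 1.51, 1.70 and 1.99 against 0.850, 1.38 and 1.71, and the groups overlap. At this depth the log2 fold change of -0.40 had the widest interval of the 9, -1.10 to 0.29 (adjusted p = 0.529). Leaving out CNTNAP2-203 OE replicate 1 gave -0.16, and leaving out replicate 3 gave -0.64. APOE lies at 19:44905754-44909393 on the plus strand. It shares 19 exonic bases with AC011481.3 on the same strand, a gene with 1 to 4 counts per library. NPC1, the protein that lets LDL-derived cholesterol leave lysosomes, held 79.4, 76.5 and 81.2 CPM in control and 77.6, 85.4 and 60.1 CPM in CNTNAP2-203 OE. Replicate 3 was the lowest library for NPC1 as for ABCA1, by 0.44 on the log2 scale against the mean of replicates 1 and 2, with a longest coding transcript of 5157 bases. The log2 fold change was -0.09 (95% interval -0.40 to 0.23, adjusted p = 0.779), and 0.04 without that library. NPC1 (18:23506184-23586898, minus strand) shares 604 exonic bases with RMC1 on the other strand.

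Levels of different genes were compared per length, as deposited log2(FPKM + 1). By the mean of all 6 libraries the order was LPCAT3, MYLIP, NR1H2, NPC1, SMPDL3A, ABCA1, ABCG1, NR1H3 and APOE. The places of LPCAT3, NPC1 and NR1H3 are uncertain, since these genes share exonic bases with EMG1, RMC1 and ACP2, respectively. Of the 8 neighbouring pairs, 6 kept their order in 6 of 6 libraries. That gives the smallest p that an exact two-sided sign-flip permutation test over 6 libraries allows (p = 0.0312, adjusted p = 0.0417 over the 8 pairs). The neighbours were picked by the mean of these same 6 libraries, so the p-values describe these libraries and are no independent evidence. The mean differences of these 6 pairs were 0.27 to 0.75. The pairs SMPDL3A and ABCA1 (mean difference 0.02, adjusted p = 0.969 in the same exact test) and ABCG1 and NR1H3 (0.34, adjusted p = 0.286) did not pass. The test pools both groups, so for these pairs its spread includes the shift between control and CNTNAP2-203 OE. Each of these pairs had the same order in 3 of 6 libraries. ABCA1 was above SMPDL3A in control, at 4.57 ± 0.433 against 3.21 ± 0.330 FPKM, and below it in CNTNAP2-203 OE, at 2.41 ± 0.576 against 3.61 ± 0.130 FPKM. ABCG1 was above NR1H3 in control, at 2.45 ± 0.223 against 1.04 ± 0.0640 FPKM, and in CNTNAP2-203 OE, at 0.945, 0.948 and 0.951 FPKM, it was below all 3 values of NR1H3, 0.970, 0.994 and 1.18 FPKM.

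**Figure D4:**
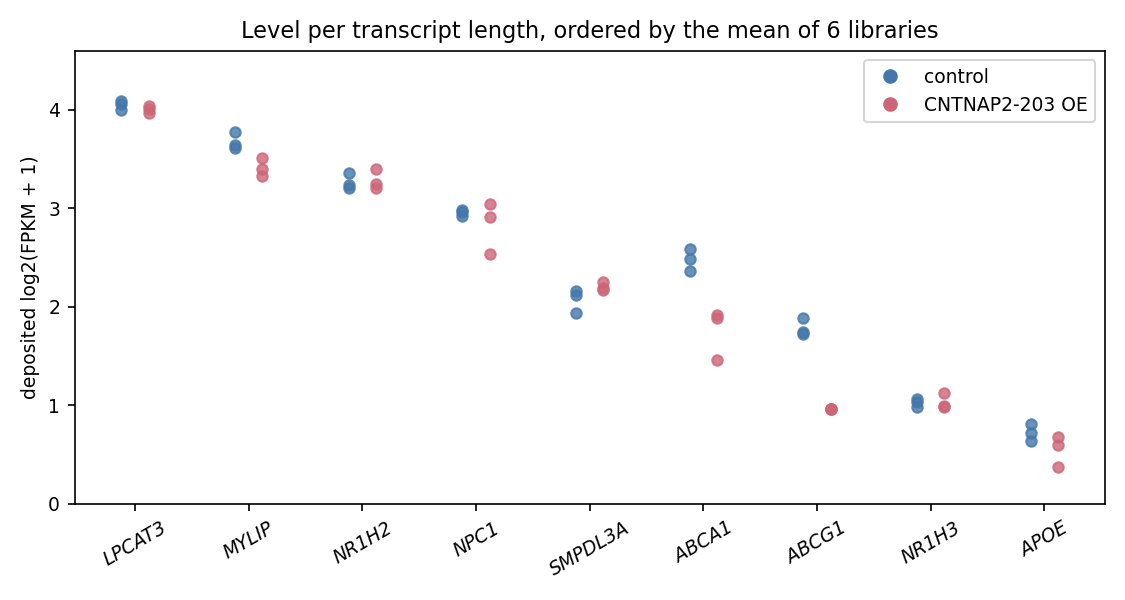
Vertical axis, deposited log2(FPKM + 1) from 0; horizontal axis, the 9 genes by mean level, with control libraries in blue and CNTNAP2-203 OE libraries in red. LPCAT3, whose value is uncertain because it shares exonic bases with EMG1, is highest near 4 and APOE lowest below 1, and ABCA1 and ABCG1 are the genes whose groups lie farthest apart.

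Other genes of the pathway were read from 12 lists, which hold 134 reported genes, 105 of them tested. TBL1X fell in the edgeR test, and no other of these 105 was called. Over all tested genes, edgeR called 1.39%, and 17.2% had an unadjusted p under 0.05. DESeq2 called 10 of the genes in these lists, and 7.62% of the 14763 genes to which it gave an adjusted p. Beside these shares, nothing is read from the counts per list that follow. Among 12 tested of 19 other LXR targets, edgeR, limma-voom and limma-trend called 0, and 5 had an unadjusted p under 0.05. DESeq2 called MLXIPL, SREBF1 and ABCA12 lower in this list. Of the 12, 7 had positive and 5 negative log2 fold changes, and the median was 0.14.

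MLXIPL, the carbohydrate-responsive factor ChREBP, was at 10.1, 7.80 and 7.81 CPM in control and at 4.65, 5.01 and 4.72 CPM in CNTNAP2-203 OE. Its groups did not overlap, and its log2 fold change of -0.84 (SE 0.162) just missed the threshold (adjusted p = 0.0549). It passed with no filter on low counts (0.0465) and by DESeq2 (0.000749).

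SREBF1, the LXR target that drives fatty acid synthesis, was at 539 ± 13.0 CPM in control and 406 ± 27.8 CPM in CNTNAP2-203 OE (log2 fold change -0.41, adjusted p = 0.0869). PLTP, the phospholipid transfer protein, was at 42.2 ± 1.27 against 31.6 ± 4.96 CPM (-0.42, adjusted p = 0.163), and ABCA12, the lipid transporter of keratinocyte granules, named after its values were seen, at 28.9 ± 1.98 against 17.4 ± 5.47 CPM (-0.73, adjusted p = 0.161). Without CNTNAP2-203 OE replicate 3, SREBF1 and PLTP were called lower. With MLXIPL, these were the 4 of the 12 targets whose overexpressing libraries all lay below the controls, and 2 lay above, where 12.8% and 13.7% of all tested genes did. The 2 above, named after their values were seen, were ELOVL5 and FADS1. ELOVL5 was at 162 ± 4.19 against 193 ± 9.72 CPM (log2 fold change 0.25, unadjusted p = 0.022 and adjusted p = 0.207 by edgeR). FADS1 was at 108 ± 6.53 against 121 ± 6.61 CPM (0.16, adjusted p = 0.433). The enzymes SCD and FASN, named after their values were seen, had log2 fold changes of -0.14 (adjusted p = 0.584) and 0.16 (adjusted p = 0.671). FASN was at 555, 597 and 672 CPM in control and 726, 795 and 512 CPM in CNTNAP2-203 OE. Of the overexpressing libraries, replicates 1 and 2 lay above every control and replicate 3 below every control. SCD was at 3367, 3935 and 4103 CPM against 3690, 3569 and 3100 CPM, with replicate 3 again the lowest library. LPL, APOC2, APOC4 and ABCG8 had no count in any library, and APOD, ABCG5 and CYP7A1 had at most 7.

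Of 17 tested RXR partners and LXR coregulators, 1 fell and 4 had an unadjusted p under 0.05. The median was -0.29 and 12 were negative, where over all 18786 tested genes the median was -0.0038 and 9471 were negative. Named after their values were seen, NCOR1, NCOA1 and NCOA2 were lowest in CNTNAP2-203 OE replicate 3, at 67.5, 7.52 and 36.5 CPM. Replicates 1 and 2 held 97.5 and 97.5, 22.4 and 18.4, and 61.6 and 58.6 CPM, respectively. For GPS2 and HDAC3, named likewise, replicate 3 was the highest of its group. How far the median rests on replicate 3 was not tested. TBL1X, a subunit of the corepressor complex with NCOR1 and HDAC3, was at 24.2, 24.4 and 24.9 CPM in control and at 10.2, 10.1 and 8.17 CPM in CNTNAP2-203 OE. That is a log2 fold change of -1.36 (SE 0.133, adjusted p = 0.0093), with all overexpressing libraries far below the controls. The call was lost without control replicate 1, 2 or 3 (adjusted p = 0.0558, 0.0711 and 0.0564). The coactivator gene NCOA3 was at 211 ± 6.44 against 147 ± 37.4 CPM (log2 fold change -0.52, adjusted p = 0.2004), with replicate 3 lowest at 104 CPM, and -0.33 without that library. Named after their values were seen, RXRA and RXRB, the receptors' partners, were at 230 ± 65.1 against 252 ± 18.3 CPM and at 51.3 ± 5.78 against 54.0 ± 2.06 CPM, neither called. RXRG had no count.

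In the other 10 lists edgeR, limma-voom and limma-trend called no gene. DESeq2 called ABCG2, SMPD4, SQLE and TMEM97 higher and ABCA12, LRP1 and VLDLR lower. Among 8 other ABCA and ABCG transporters tested, 3 had an unadjusted p under 0.05 and 7 were negative, with a median of -0.15. ABCG2, a drug exporter, had a log2 fold change of 1.09 (1.30 ± 0.423 against 2.77 ± 0.182 CPM, adjusted p = 0.106) and ABCA3, a lamellar body lipid transporter, -0.89 (adjusted p = 0.156). Among 9 lipoprotein receptors and IDOL partners, 2 had an unadjusted p under 0.05. VLDLR, a receptor that IDOL degrades, was at 33.9, 43.2 and 38.6 CPM in control and between 24.3 and 27.5 CPM in CNTNAP2-203 OE (log2 fold change -0.59, adjusted p = 0.0702). LRP1, a large scavenger receptor, was at 88.9 ± 7.65 against 54.5 ± 17.1 CPM (-0.71, adjusted p = 0.178), and -0.49 without CNTNAP2-203 OE replicate 3.

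In endolysosomal cholesterol handling, 3 of 16 tested genes had an unadjusted p under 0.05. TMEM97, which binds NPC1, was at 19.1, 21.4 and 20.6 against 25.7, 35.5 and 44.9 CPM (log2 fold change 0.79, adjusted p = 0.0999), and NPC2, the partner that hands cholesterol to NPC1, at 93.6 ± 10.6 against 126 ± 13.3 CPM (0.43, adjusted p = 0.139). Of 9 genes of sterol sensing, 1 had an unadjusted p under 0.05: SQLE, a control point of cholesterol synthesis, at 98.7 ± 14.8 against 146 ± 7.03 CPM (0.57, adjusted p = 0.0807). SCAP, the escort of SREBP factors, had a log2 fold change of -0.21. Among 4 oxysterol and sterol ligand enzymes tested, 1 had an unadjusted p under 0.05: HSD3B7, an enzyme of bile acid synthesis, at 9.92 ± 0.445 against 14.5 ± 3.15 CPM (0.54, adjusted p = 0.170), and 0.35 without CNTNAP2-203 OE replicate 3. CYP7B1, an oxysterol hydroxylase, was at 3.12 ± 0.910 against 3.53 ± 0.665 CPM (0.18, adjusted p = 0.760).

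Among 6 tested apolipoproteins and HDL acceptors, 2 had an unadjusted p under 0.05: PLTP, given above, and CLU, or clusterin, at 18.4 ± 1.78 against 24.4 ± 4.03 CPM (log2 fold change 0.41, adjusted p = 0.225, and 0.26 without CNTNAP2-203 OE replicate 3). APOA2, APOA4, APOA5, APOC2 and APOC3 had no count in any library. Of 4 tested genes of cholesterol esters, 1 had an unadjusted p under 0.05: SOAT1, which esterifies cholesterol, at 85.3 ± 3.00 against 99.6 ± 7.47 CPM (adjusted p = 0.289). NCEH1, an ester hydrolase, had a log2 fold change of 0.20. The sphingomyelinase family held 1 of 5 with an unadjusted p under 0.05, SMPD4 (0.38, adjusted p = 0.121), and SMPD1, acid sphingomyelinase, was at -0.16. None of 6 lysophospholipid acyltransferases had an unadjusted p under 0.05, with MBOAT1 (0.33) and MBOAT7 (0.19) smallest by p. Among 13 other receptors of the NR1 subfamily 2 did, the thyroid hormone receptor gene THRA (-0.33, adjusted p = 0.260) and the retinoic acid receptor gene RARA (0.30, adjusted p = 0.267).

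**Figure D5:**
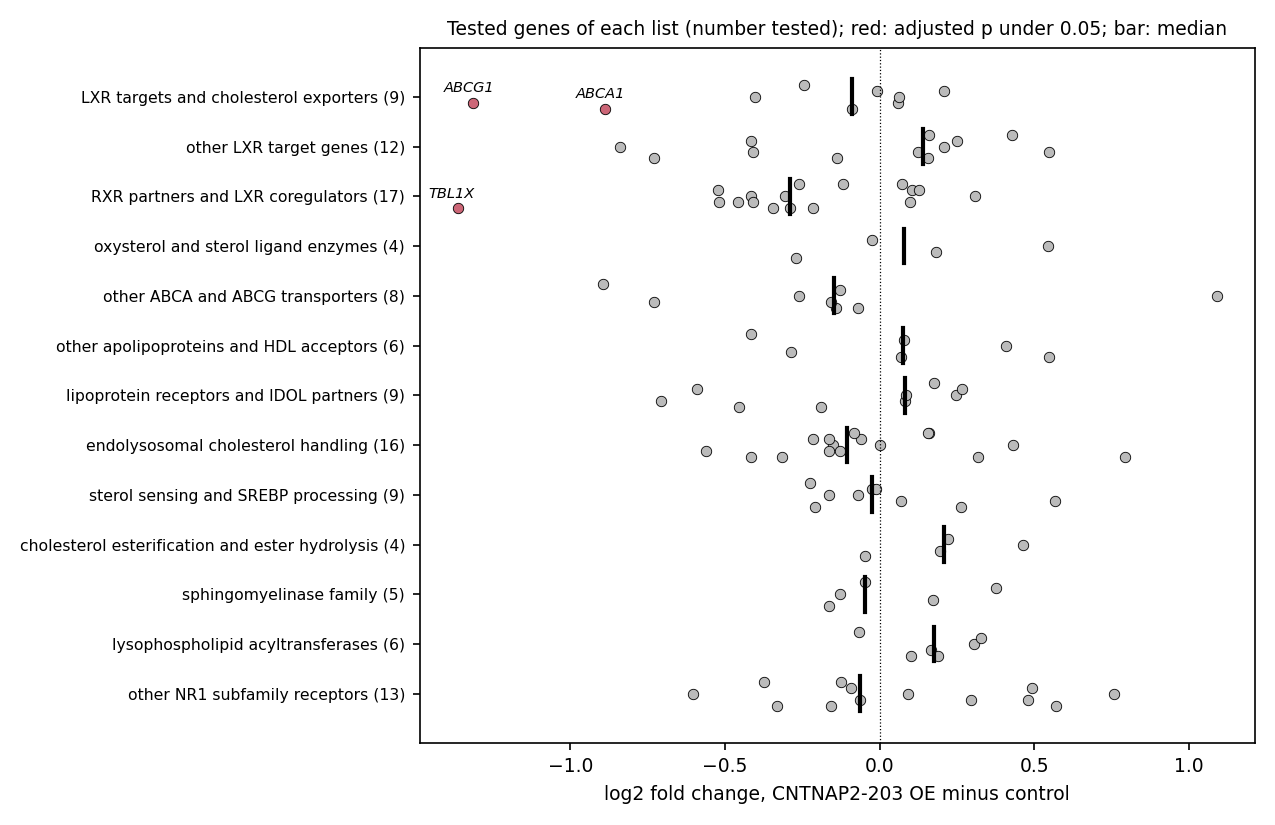
Horizontal axis, fitted log2 fold change, CNTNAP2-203 OE minus control; vertical axis, the gene lists with the number tested, 1 point per gene, shifted up or down for legibility, and the median as a bar. ABCG1, ABCA1 and TBL1X to the left (red) were called; all other points are grey.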

How the data were processed

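Total RNA was cleared of ribosomal RNA (Ribo-Zero) before TruSeq v2 library preparation, per the labels' protocols. Trim Galore 0.4.4 and build hg38 appear in the submitters' processing notes; aligner, counter, annotation and strand were not given in the sources used here. Raw counts per gene are whole numbers as the authors deposited them. The log2 values, deposited by the authors, are log2(FPKM + 1): with that offset the implied gene length varied between libraries by a median of 0.228%, and with no offset by 2.48%. The labels say that the reverse reads of control replicate 1 were missing from the submission.

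Differences were tested on counts by edgeR 4.0.16 under R 4.3.3 (filterByExpr, minimum count 10; TMM; robust quasi-likelihood test on group; Benjamini-Hochberg over 18786 genes, threshold 0.05). SE is the log2 fold change over the root of F. Alternatives used limma 3.58.1 and DESeq2 1.42.0. Scripts were tested on simulated data. Coordinates are from GENCODE 29 (GRCh38).

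The genes, lists and naming rule were chosen with earlier results of these data known. Named were the 9 genes, CNTNAP2, in each list every called gene and the 2 with the smallest p, and the 3 genes most like ABCG1 and the 3 most like ABCA1 by Pearson correlation. Some listed genes are not reported here and were left out of the list counts; the 2 of smallest p were taken from the rest.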

Additional observations from a re-analysis of the deposited data

How the results depend on the processing

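Over 13 alternative fits, ABCG1 kept its direction in all (log2 fold change -1.36 to -0.82) and its call in 8, and ABCA1 its direction in all (-0.99 to -0.72) and its call in 4. The smallest changes, -0.82 and -0.72, came from limma-trend on log2(FPKM + 1), another scale than counts. In the fits on counts the ranges were -1.36 to -1.24 for ABCG1 and -0.99 to -0.73 for ABCA1. The lowest and highest number called when 1 library was left out was 0 and 2 of the 9 genes, 0 and 3 genes of the other lists, 8 and 310 genes higher and 6 and 235 genes lower over the whole table. Of the 9 genes, 1 was called with RLE size factors in edgeR, by limma-voom and by limma-trend (ABCG1 each time). Over the whole table DESeq2 called 650 higher and 475 lower, limma-voom 97 and 69, and limma-trend 99 higher. Of the other lists, DESeq2 called 10 genes and edgeR with no filter on low counts 2, in place of 1. Among the fits with 1 library left out, the highest counts came without CNTNAP2-203 OE replicate 3. The cause of these changes was not tested. With the replicate block, 0 of the 9 genes, 0 genes of the other lists, 11 genes higher and 6 lower were called, at adjusted p = 0.0642 for ABCG1 and 0.113 for ABCA1. Samples share only a number: deviations of same-numbered libraries correlated at -0.08, 0.05 and -0.03, and not every library correlated best with its own number. Log2 fold changes near 0 changed sign: with 1 library left out NR1H3 ran from -0.064 (without CNTNAP2-203 OE replicate 3) to 0.12, NPC1 from -0.20 to 0.040 (without CNTNAP2-203 OE replicate 3), and LPCAT3 from -0.037 to 0.011 (without control replicate 3), with 0.0017 without CNTNAP2-203 OE replicate 1. CYP7B1 ran from -0.0023 (without control replicate 1) to 0.42. With an offset of 0.1 in place of 1, 6 of the 8 pairs in the order of levels still passed. With 1 library left out the smallest p of that test is 0.0625, so no value could be given. The count depth limits APOE, with 36 to 84 counts a library.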

Other observations

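Over the 6 libraries, the log2 CPM of SLC16A5, PRKCD and EIF4E3 followed ABCG1 most closely among 12476 genes, with Pearson r of 0.996, 0.996 and 0.995. Their changes were far smaller than that of ABCG1, with log2 fold changes of -0.31, -0.17 and -0.27, and edgeR called none of them. The pattern of ABCA1 was followed most closely by DNMT3A, the de novo DNA methyltransferase (r = 0.9997), TNFSF15, a cytokine (0.997), and EPB41L5, a cytoskeletal adaptor (0.997). DNMT3A was at 17.6 CPM in control and 10.9 CPM in CNTNAP2-203 OE, and its log2 fold change of -0.68 was not called by edgeR (adjusted p = 0.0834). The 6 points share their group and their library, and the highest of 12476 correlations are high by choice, so these values are a description.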
